A study of Mus musculus with 6 samples.

Results

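The 3 input libraries of an RNA immunoprecipitation experiment were taken here as a transcriptome of adult bone marrow B cell precursors that had been expanded in IL-7 with or without LIN28B. They were 3 of the 6 libraries of the series, namely 2 tet-LIN28B inputs and 1 littermate control input, and each was RNA from the 10% of the lysate that was set aside before anti-Flag precipitation. Genes were kept where the mean over the 3 inputs was at least 1 FPKM (fragments per kilobase of transcript, scaled to the mapped fragments of the library), which left 12576 of 54752 gene models.

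The tet-LIN28B mice carried one copy of a doxycycline (Dox) inducible, Flag-tagged human LIN28B cDNA in the Col1a locus together with Rosa26 rtTA m2, the Dox-dependent activator. The littermate control carried the activator without the LIN28B cDNA, so that activator and Dox were common to all 3 cultures. Bone marrow of adult, untreated animals was depleted of adherent cells and then grown for 5 days in IL-7 (20 ng/mL) with Dox, which was added only in culture. The labels give the Dox concentration as 0.1 mg/mL and the methods of the study give 0.1 µg/mL. The activator is expressed from a ubiquitous locus, so LIN28B could be induced in any cell type that persisted in the culture. The labels number the tet-LIN28B libraries as biological replicates 1 and 2 and the study describes the pair both as individual mice and as technical replicates. There was 1 control, so every p-value below measures only the spread between the tet-LIN28B inputs.

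LIN28B is an RNA-binding protein of fetal and neonatal life. It blocks the maturation of let-7 microRNAs, which repress growth-related mRNAs, and it also binds many mRNAs directly. In B lymphopoiesis, IL-7 sustains dividing Pro-B and large Pre-B cells, which carry a pre-BCR made of the µ heavy chain with the surrogate light chains VPREB and λ5 (Igll1). Light chain genes are rearranged afterwards, when IL-7 signaling weakens. Dntt (terminal transferase), which adds untemplated bases to V(D)J junctions, is known as an enzyme of adult rather than fetal B cell precursors.

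All let-7 microRNAs share the seed (bases 2 to 8) through which they recognize their targets, and the 9 mature let-7 and miR-98 sequences of the mouse found in RefSeq (GRCm38.p6) all had it. The 4 sequences below show the shared seed in capitals beside their differing 3′ parts. The mature microRNAs themselves cannot be read from poly-A selected libraries.
let-7a-5p: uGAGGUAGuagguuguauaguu
let-7b-5p: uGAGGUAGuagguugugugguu
let-7g-5p: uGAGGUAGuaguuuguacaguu
miR-98-5p: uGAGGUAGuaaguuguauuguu

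The heptamer complementary to this seed, CTACCTC, was searched on the sense strand of the 3′ UTR of the longest coding transcript of each gene (GENCODE M21, GRCm38, the build of the files). The 4 stretches below hold the first match, in capitals, of the genes on which the let-7 results turn. Arid3b and Arid3a encode DNA-binding proteins of the ARID family, Hmga1 encodes a chromatin architectural protein of proliferating cells, and Igf2bp3 encodes a fetal mRNA-binding protein. The windows lay at chr9:57790361-57790383 (minus strand) for Arid3b, chr10:79953895-79953917 (plus) for Arid3a, chr17:27563277-27563299 (plus) for Hmga1 and chr6:49086787-49086809 (minus) for Igf2bp3. Arid3a had 2 matches in its 3′ UTR and the others 1 each.
Arid3b: tatttcaataaagctCTACCTCt
Arid3a: aaggcaagtttctttCTACCTCa
Hmga1: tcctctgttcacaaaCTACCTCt
Igf2bp3: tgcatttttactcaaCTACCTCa

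The values carry no counts, but low FPKM values of genes with a single transcript fell on steps that correspond to whole fragments. From these steps the inputs were estimated to hold 18900000 (tet-LIN28B input 1), 17700000 (tet-LIN28B input 2) and 21300000 (control) mapped fragments, with 88.2% to 89.9% of the low values within 0.2 of a whole fragment. Between 12280 and 12620 genes reached 1 FPKM in each library, and the mitochondrially encoded RNAs took 8.58%, 7.5% and 6.74% of the summed FPKM in the same order. Over all 12576 genes the tet-LIN28B inputs differed from the control by a median of -0.02 and -0.06 on the log2(FPKM + 1) scale, on which all differences below are given. No pair of libraries held identical values.

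The cultures had the make-up of B cell precursors. Every one of the 31 genes of the B progenitor identity list and every one of the 17 pre-BCR genes was at 1 FPKM or more. Cd79a, the Igα signaling chain of the pre-BCR and BCR, was at 1077 FPKM in tet-LIN28B input 1, 1495 in input 2 and 1511 in the control. Vpreb1, a surrogate light chain component, was at 3112, 3364 and 3012 FPKM in the same order. Igll1 was at 1396, 1749 and 1634 FPKM. For these 3 markers the difference from the control was smaller than its standard error, with -0.25 ± 0.28 (SE) for Cd79a, 0.10 ± 0.18 for Vpreb1 and -0.06 ± 0.22 for Igll1. Vpreb2, the near-identical copy of Vpreb1, was at 931, 950 and 713 FPKM, but reads shared by the copies may have been split between them.

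Other cell types were present too, and unequally. The granulocyte and monocyte markers summed to 8809 FPKM in tet-LIN28B input 1, 5455 in input 2 and 7536 in the control, beside 4952, 5599 and 7008 for the B progenitor identity list. Most of the former came from the calprotectin subunits, with S100a8 at 2989, 1848 and 2667 FPKM and S100a9 at 3770, 2355 and 3335, above Cd79a and Igll1 in every library. T cell markers summed to 263 FPKM in tet-LIN28B input 1 against 123 in input 2 and 143 in the control, and Cd3d, a chain of the T cell receptor complex, was at 18.5, 5.11 and 4.21. Megakaryocyte and platelet markers summed to 939, 528 and 527 FPKM, and macrophage markers to 123, 69.7 and 67.1. Of the 22 stromal and adherent cell genes 20 were below 1 FPKM and their sum was 10.2 to 14.4 FPKM. In these bulk samples fewer cells of a type and less RNA per cell cannot be told apart.

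**Figure D1:**
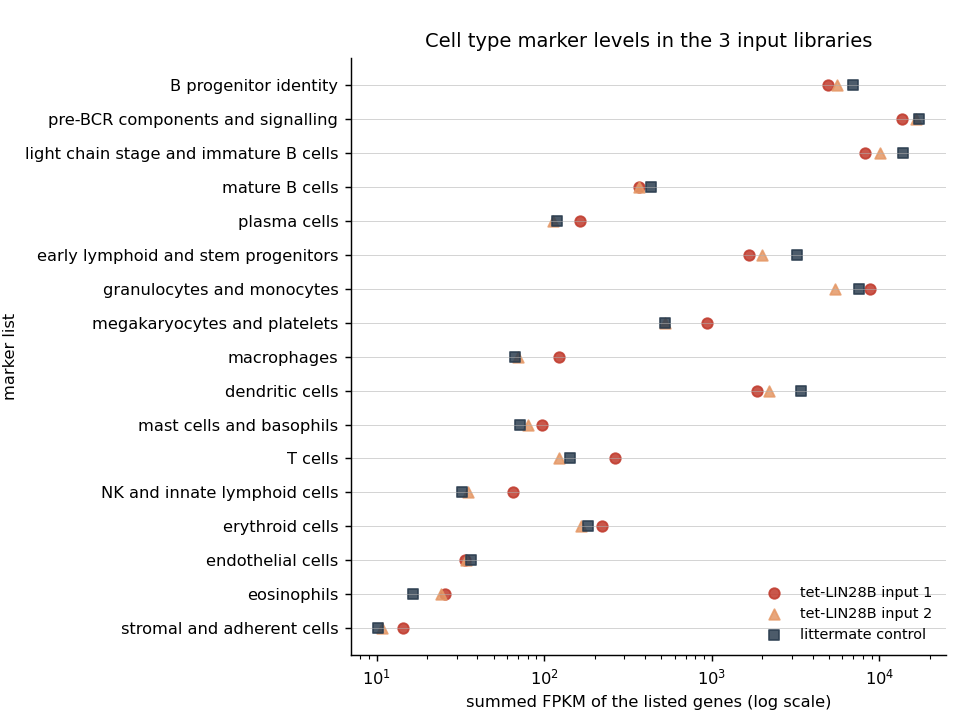
Summed FPKM of the genes of 17 marker lists (rows) in each of the 3 input libraries, on a log axis. Pre-BCR genes gave the highest sum in every library, followed by granulocyte and monocyte markers in tet-LIN28B input 1 and by light chain genes in the other 2 libraries, the control (square) was above both tet-LIN28B inputs for the light chain list, and tet-LIN28B input 1 (circle) stood apart for T cell, macrophage and megakaryocyte markers.

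Reads from the transgene were not expected in the table, which lists mouse genes. The endogenous Lin28b gene was listed at 0.62 FPKM in tet-LIN28B input 1, 1.03 in input 2 and 0.01 in the control, and its mean was too low for the test. These reads separated the tet-LIN28B libraries from the control in the direction of the labels, although reads of the human cDNA that map to the mouse gene cannot be told from endogenous transcription. Lin28a was at 0.13, 0 and 0.01 FPKM. Xist, which marks cells with an inactive X, was at 11.7, 11 and 8.22 FPKM, and Ddx3y, Kdm5d, Uty and Eif2s3y of the Y chromosome were listed at 0 in all 3 inputs, so sex did not separate the groups. Xist and Tsix overlap on opposite strands and cannot be told apart in an unstranded library.

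Across all 12576 genes no gene passed the limma test at an adjusted p under 0.05 (0.0%), the smallest adjusted p was 0.077, and 680 genes had an unadjusted p under 0.05, of which 279 were higher (2.22%) and 401 lower (3.19%) in tet-LIN28B. The genes are therefore described by the side on which both tet-LIN28B inputs lay. Both were above the control for 3603 genes (28.6%) and below it for 5092 (40.5%). Both were at least 1.5-fold above for 262 genes (2.08%) and at least 1.5-fold below for 334 (2.66%). The tet-LIN28B inputs were themselves 1.5-fold or more apart for 1335 genes (10.6%), against 1598 (12.7%) for input 1 and the control and 1273 (10.1%) for input 2 and the control. The distance from tet-LIN28B to control was thus of the size of the distance between the tet-LIN28B inputs.

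Many of the genes that stood apart were short or repeated gene models. Among 285 models of microRNAs, snoRNAs, snRNAs and similar small RNAs 33.3% were 1.5-fold apart in both inputs, and among 690 pseudogene models 13.2%. A model shorter than the sequenced fragments has an uncertain effective length, and reads shared by copies can be assigned to any of them. The 10 largest differences in each direction were all in such models and are not described further. Among 10298 protein-coding genes 127 were 1.5-fold higher (1.23%) and 128 were 1.5-fold lower (1.24%). The genes below come in part from these, from H19 and from the immunoglobulin segments. Others are named as members of gene lists or were looked up, and many of them were not 1.5-fold apart in both inputs.

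**Figure D2:**
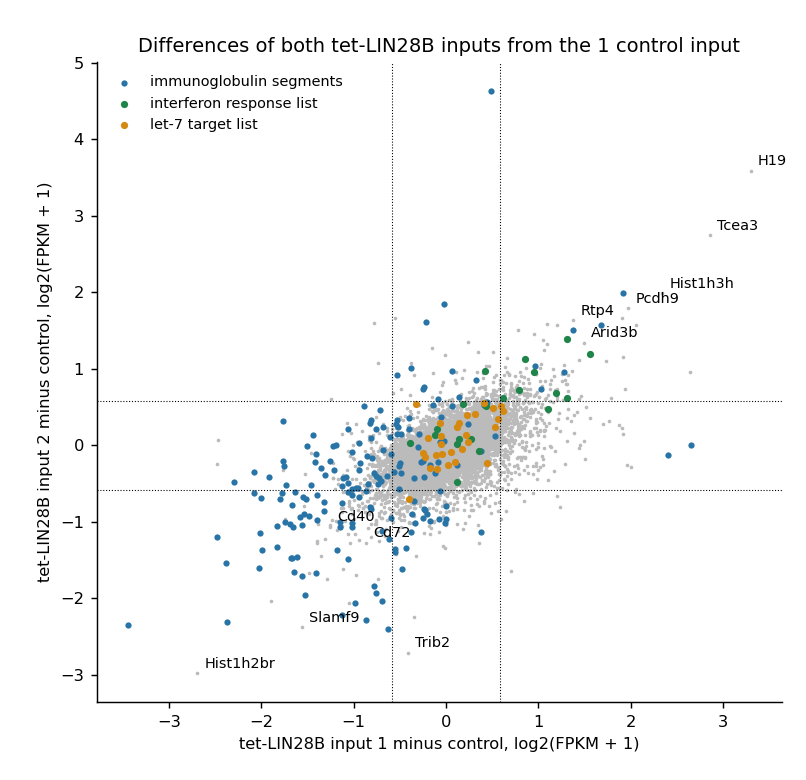
Difference of tet-LIN28B input 1 (horizontal) and input 2 (vertical) from the control input in log2(FPKM + 1), 1 point per protein-coding gene or immunoglobulin segment plus H19, with dotted lines at 1.5-fold. H19 and Tcea3 lie farthest out with both inputs higher, and most immunoglobulin segments (blue) lie toward the lower left.

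The largest difference among protein-coding genes, lincRNAs and immunoglobulin segments was in H19, an imprinted, maternally expressed long noncoding RNA that is abundant in the fetus and silenced after birth in most tissues. H19 (chr7:142575529-142578143, minus-strand lincRNA model) was at 289.9 FPKM in tet-LIN28B input 1, 354 in input 2 and 28.5 in the control. Both tet-LIN28B inputs lay far above the control and close to each other. The mean of 322 ± 45.7 FPKM (SD, n = 2) was 11.3 times the control, a difference of 3.45 ± 0.18 (SE) with an adjusted p of 0.17 in limma. Its adjusted p was 0.041 when each library was centered on its median.

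Neighbors of H19 were then listed within 0.5 Mb, a region chosen after its values were seen. Igf2, the paternally expressed partner of H19 and a fetal growth factor, was listed at 0 in the control and at 0.50 (input 1) and 1.3 FPKM (input 2) with LIN28B. Tnni2, a troponin of fast skeletal muscle that starts 134 kb from H19, was at 22.8, 26.8 and 10.1 FPKM, a difference of 1.21 ± 0.17. Tnnt3, another fast muscle troponin 76.7 kb away, was at 1.45, 1.3 and 0.39 FPKM. Not all neighbors were higher in both inputs. Lsp1, a leukocyte actin-binding protein whose gene lies between Tnni2 and Tnnt3, was at 206, 275 and 252 FPKM, and Cd81 on the far side of Igf2 was at 79.1, 104 and 91. A further neighbor, 494 kb from H19, was lower in both inputs (-0.43 ± 0.12). Of 81 protein-coding genes tested within 10 Mb of H19, 4 were 1.5-fold higher and 0 lower in both inputs, beside 1.23% and 1.24% of all protein-coding genes. Tnnt3, among these 4, passed the minimum of 1 FPKM only through the tet-LIN28B inputs.

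The other imprinted genes were mostly silent. Of the 25 genes of the imprinted gene network list 7 were at 1 FPKM or more and 9 were listed at 0 in all inputs. Of the 7 measured genes, H19 among them, 6 were higher and 1 lower in both inputs, beside 28.6% and 40.5% of all genes. Their median difference was 0.25, beside -0.04 for all genes. Airn, the noncoding RNA antisense to Igf2r, was at 4.45, 5.85 and 2.10 FPKM, and Gnas, which encodes the stimulatory G protein subunit, was at 386, 408 and 449. Cdkn1c, a cell cycle inhibitor on the same chromosome as H19, was at 0.13, 0.17 and 1.71 FPKM, lower in both tet-LIN28B inputs but under the minimum for the test.

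Tcea3 had the largest difference among the protein-coding genes that were higher in tet-LIN28B, and Arid3b, the 10th of them, is given with it for its let-7 match. Tcea3, a tissue-restricted relative of the elongation factor TFIIS, was at 19.7, 18.2 and 1.85 FPKM, so that the tet-LIN28B inputs differed by little and both exceeded the control by a wide margin. The difference was 2.81 ± 0.16, 10.2 times the control, with an adjusted p of 0.17 in limma over all genes and 0.034 when only protein-coding genes were tested. Arid3b was at 41.5, 37.4 and 14.1 FPKM, 2.79 times the control (1.42 ± 0.15, adjusted p = 0.34). Tcea3 had no let-7 match in its 3′ UTR and Arid3b had the 1 shown above.

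Further protein-coding genes at the top of the list were from unrelated families. Pcdh9, a protocadherin adhesion molecule, was at 13.4, 11.7 and 2.66 FPKM. Rapgef4, a cAMP-activated exchange factor for Rap, was at 4.71, 3.06 and 0.37. Hist1h3h, a histone H3 gene, was at 19.6, 15.1 and 3.06, whereas Hist1h2br, a histone H2B gene, was at 0.23, 0.01 and 6.96. These 2 histone genes have close copies in the same cluster, and their values depend on how shared reads were assigned. Jchain, which links IgM and IgA polymers, was at 25.2, 7.15 and 3.20 FPKM, above the control in both inputs, and Igha, the heavy chain of IgA, was at 30.4, 4.43 and 4.91. Both are on the plasma cell list. Of its 5 measured genes 1 (Jchain) was higher and 2 were lower in both inputs, beside 28.6% and 40.5% of all genes. The 2 lower ones were Irf4 (given below) and Sdc1, a surface proteoglycan, at 3.11, 2.51 and 5.24. Hba-a1, an α-globin gene of erythroid cells, was at 39.4, 22.9 and 9.73. The erythroid list did not follow it as a whole. Of its 7 measured genes 3 were higher and 3 lower in both inputs, beside 28.6% and 40.5% of all genes. Their median difference was -0.04.

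The remaining coding genes of the ranked lists of higher genes had values as follows. Saa3, an acute phase protein, was at 5.53, 4.53 and 0.74 FPKM, and Ckb, the brain-type creatine kinase, at 6.47, 3.84 and 1.25. Among genes at 10 FPKM or more, Apoc2, an activator of lipoprotein lipase, was at 23.2, 19.6 and 8.97, Ccl4, a chemokine, at 14.8, 12.1 and 6.02, and Pcp4l1 at 14.2, 14.6 and 6.46. In each of these both tet-LIN28B inputs were more than 1.5-fold above the control. Vwf, the von Willebrand factor of megakaryocytes and endothelium, was at 11.7, 9.13 and 4.30 FPKM. Itga2b, the megakaryocyte integrin αIIb, was at 24.0, 15.5 and 9.90, and Pf4 of platelets at 771, 416 and 428. Of the 9 measured genes of the megakaryocyte list 7 were higher in both inputs and 0 lower, beside 28.6% and 40.5% of all genes. The list sum was highest in tet-LIN28B input 1 (939 FPKM) and nearly equal in input 2 (528) and the control (527). The part of such cells in the result was not tested.

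Several genes of B lineage cells were lower in both tet-LIN28B inputs. Cd40, the costimulatory receptor of B cells, was at 13.6, 15.6 and 33.7 FPKM, 2.31 times higher in the control (difference -1.16 ± 0.16, adjusted p = 0.56). Il2ra, the CD25 chain used as a marker of small Pre-B cells and looked up after its values were seen, was at 5.27, 5.50 and 12.8. Cd72, an inhibitory coreceptor of the BCR, was at 164, 123 and 299. For each of these the control lay above both tet-LIN28B inputs by more than these differed. Fcmr, the Fc receptor for IgM, was at 70.5, 120 and 188 FPKM, with the tet-LIN28B inputs farther apart. Fcrla, a B cell Fc receptor-like protein, was at 79.4, 81.3 and 159.

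Not all of the lower genes belong to the B lineage. Wfdc17, a secreted myeloid protein, was at 21, 15 and 52.6 FPKM. Slamf9, an immunoglobulin family receptor, was at 5.26, 2.54 and 17.4 FPKM and Spns3, of the spinster transporter family, at 3.42, 2.87 and 11.3. Both tet-LIN28B inputs lay well below the control for each of these. Myl4, a myosin light chain, was at 50.9, 59.4 and 123, and Tle6, a Groucho family protein, at 1.56, 1.39 and 5.52. Cpm (carboxypeptidase M) was at 8.07, 8.90 and 22.9, and Srpr, a subunit of the receptor for the signal recognition particle, was at 26.7, 30.8 and 62.3. Trib2, a pseudokinase, was at 26.3, 4.52 and 35.2 FPKM, a value set by tet-LIN28B input 2 alone. The granulocyte and monocyte markers as a list did not follow Wfdc17, with 6 of 19 measured genes higher and 2 lower in both inputs, beside 28.6% and 40.5% of all genes.

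Light chain genes were lower in both tet-LIN28B inputs across the loci. Igkc, the κ constant region (chr6:70726435-70726966), was at 3250.4, 3831 and 5304.5 FPKM, 1.5 times higher in the control (difference -0.59 ± 0.21, adjusted p = 0.83 in limma). Iglc3 was at 1841, 2214 and 3365 FPKM and Iglc2 at 589, 771 and 1139, and reads of these near-identical λ constant regions may have been split between them. The variable segments, which are expressed from rearranged and in part from unrearranged loci, differed more than the constant regions. The 100 Igkv models summed to 623, 942 and 1570.3 FPKM, 2.01 times higher in the control, and the 3 Iglv models to 615, 854 and 1509, 2.05 times higher.

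The lower κ values were spread over many segments. Of the 87 Igkv segments at 1 FPKM or more 72 were below the control in both inputs and 3 above, against 40.5% and 28.6% of all genes. Among them 42 were at least 1.5-fold lower (48 had 10 FPKM or more in the control, 23 in tet-LIN28B input 1 and 35 in input 2). Some segments passed the minimum of 1 FPKM only through the control, which places them on the lower side. With a minimum of 5 FPKM 29 were at least 1.5-fold lower. The most abundant, Igkv19-93, was at 35.3, 50.8 and 106 FPKM. The median difference over the Igkv segments was -0.82, with -1.12 for input 1 and -0.66 for input 2. Their number at least 1.5-fold lower was 69 in input 1 alone and 46 in input 2 alone, and of the pair input 1 was 1.5-fold below input 2 for 43 segments, so the tet-LIN28B inputs differed from each other as well.

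Heavy chain genes differed less. Ighm, the µ constant region, was at 1392, 1651 and 1984 FPKM. The 113 Ighv models summed to 244, 335 and 333 FPKM, so that the control equaled tet-LIN28B input 2 closely and exceeded input 1. Of the 68 at 1 FPKM or more, 10 were 1.5-fold lower and 4 higher in both inputs, beside 2.66% and 2.08% of all genes. Below the control in both were 33 and above it 12, beside 40.5% and 28.6%, and the median was -0.33. Variable segments are short and alike, and a value of a single segment depends on the assignment of shared reads. In the gene list for the light chain stage and immature B cells, which holds Igkc and the Iglc genes, 12 of 15 measured genes were lower in both inputs and 0 higher, with a median of -0.58 beside -0.04 for all genes. Irf4, the factor that promotes light chain recombination, was at 12.8, 13.7 and 21.6 FPKM, Cd74 (the invariant chain of MHC class II) at 642, 939 and 1159, and H2-Ab1 (a class II chain) at 184, 229.6 and 312.

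**Figure D3:**
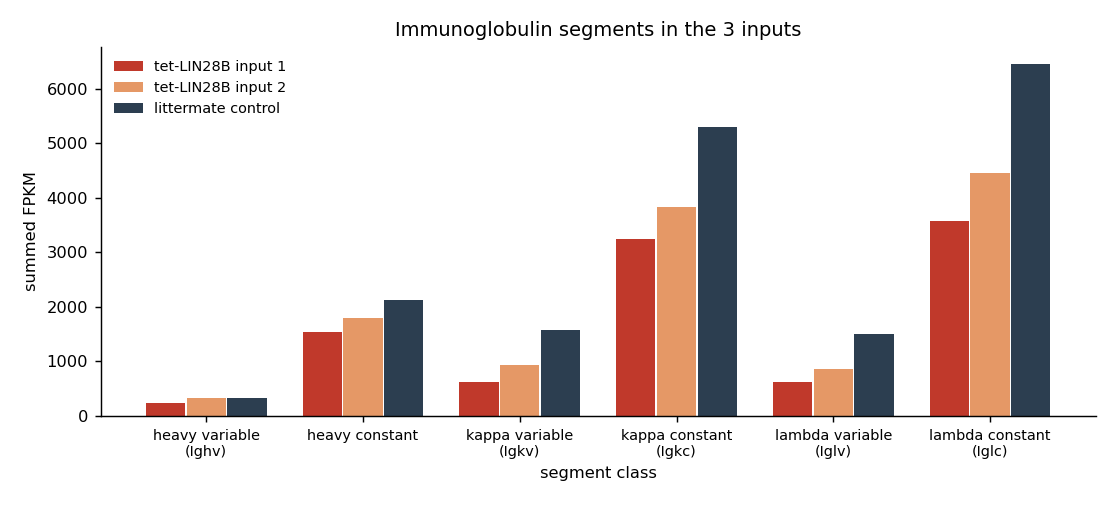
Summed FPKM of immunoglobulin segments by class in the 3 inputs, 1 bar per library. The control (dark) is highest for the κ and λ classes, with 1570.3 against 623 and 942 for κ variable segments, while the heavy variable sums were 244, 335 and 333.

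Genes of B progenitor identity had small differences, more of them lower than higher. Over the 31 identity genes the median difference was -0.10, and 7 were higher and 18 lower in both inputs, beside 28.6% and 40.5% of all genes. At least 1.5-fold higher were 0 and at least 1.5-fold lower 4, beside 2.08% and 2.66%, and the mean sum of the list with LIN28B was 0.75 times that of the control. Ebf1, a founding transcription factor of the lineage, was at 116, 107 and 118 FPKM, and Pax5, which fixes B cell commitment, at 32.3, 30.7 and 39.8. These lineage factors stayed within 1.3-fold of the control, whereas the 4 members at least 1.5-fold lower included Cd72 and Fcrla given above.

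The recombination enzymes did not move as 1 group. Dntt was at 45.5 FPKM in tet-LIN28B input 1, 43.7 in input 2 and 65.5 in the control, 1.47 times higher in the control (difference -0.54 ± 0.12, adjusted p = 0.83). The tet-LIN28B inputs were close together and both below the control. Rag1 and Rag2, which cut at the recombination signals, were at 11.7, 11.2 and 9.86 and at 13.7, 14.7 and 13.9 FPKM. Polm, a polymerase that fills in joints at light chain loci, was at 6.22, 5.13 and 13.8, the only 1 of the 15 recombination genes that was 1.5-fold lower in both inputs. Il7r, the IL-7 receptor α chain, was at 28.0, 18.4 and 35.9 FPKM, and the 17 genes of its pathway had a median difference of -0.02. Ly6d, an early B lineage surface protein, was at 1576, 1904 and 3142 FPKM, and Ly6a (Sca-1), a surface protein of stem and early progenitors that interferon also induces, at 67.7, 70.5 and 41.2.

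**Figure D4:**
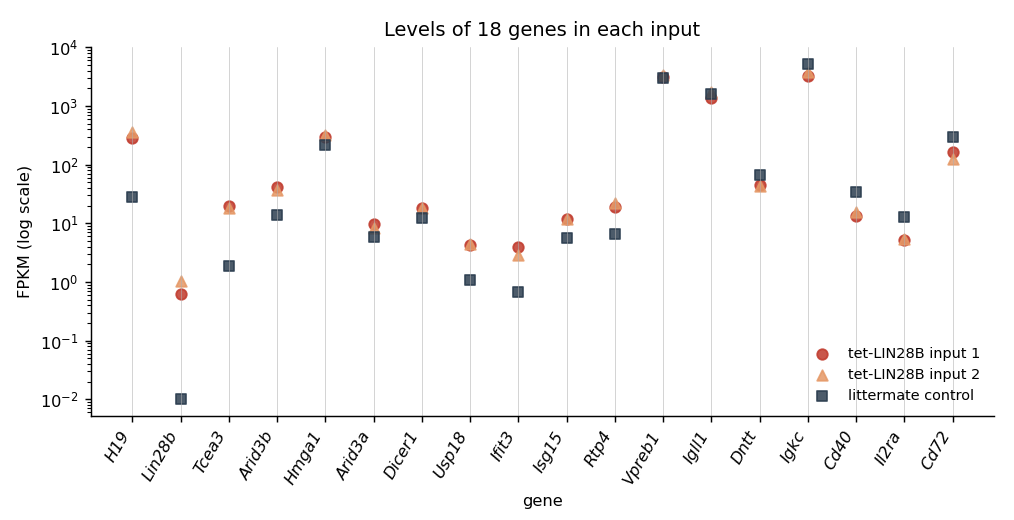
FPKM of 18 genes in each input on a log axis, tet-LIN28B inputs as circle and triangle and the control as square. H19, Tcea3 and Arid3b lie above the control in both tet-LIN28B inputs, Igll1 overlaps, and Igkc, Cd40, Il2ra and Cd72 lie below.

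Genes of the interferon response were mostly higher in both tet-LIN28B inputs. Of the 20 listed genes at 1 FPKM or more (of 23), 15 were above the control in both inputs and 0 below, beside 28.6% and 40.5% of all genes. The 8 that were at least 1.5-fold higher, beside 2.08% of all genes, were Ifit3, Usp18, Isg15, Mx1, Oasl2, Rsad2, Ifi44 and Xaf1. The median difference was 0.55. Most of the 8 had low levels and some passed the minimum of 1 FPKM through the tet-LIN28B inputs, and with a minimum of 5 FPKM 2 remained, Isg15 and Xaf1.

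Single genes of this group were as follows. Usp18, the protease that removes ISG15 from proteins, was at 4.22, 4.52 and 1.10 FPKM (difference 1.35 ± 0.21, adjusted p = 0.63). Isg15, the ubiquitin-like modifier itself, was at 11.7, 11.7 and 5.53. Ifit3, an antiviral tetratricopeptide protein, was at 3.94, 2.83 and 0.68. For all 3 the tet-LIN28B inputs lay above the control without overlap. Mx1 was at 1.23, 1.68 and 0.23 FPKM and Xaf1 at 38.5, 38.4 and 24.7. Rtp4, an interferon-inducible gene outside the list that the ranking of coding genes brought up, was at 18.8, 22.6 and 6.59. The most abundant members did not share this, with Ifi27l2a at 1682, 1999 and 1825 FPKM and Bst2 at 120, 149 and 128. Siglech, a marker of plasmacytoid dendritic cells, which make interferon, was at 11.2, 7.58 and 4.92 FPKM. Its list, that of dendritic cells, also holds Bst2. Of the 10 measured genes of that list 4 were higher and 2 lower in both inputs, beside 28.6% and 40.5% of all genes. The macrophage sums were given above. The part of such cells in the result was not tested.

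The promoters of these genes were searched on either strand for GAAA followed after any 2 bases by another GAAA, the core of the interferon-stimulated response element (ISRE) that IRF and STAT factors bind. The windows were 250 bases before to 50 bases after the start of each gene in RefSeq (GRCm38.p6). Of the 15 interferon genes with a known promoter, 9 held the motif, beside 327 of 8220 tested protein-coding genes (3.98%). Of the 6 with a promoter among the 8 higher genes 3 held it, and Oasl2, Ifi44 and Xaf1 did not. The other holders, Stat2, Oas1a, Bst2, Ifitm3, Gbp2 and Gbp3, were not among the 8, so the motif did not set the higher genes apart. The promoters of the 3 higher genes with the motif are shown, with all matches in capitals and with overlapping matches in Isg15. They lie at chr19:34583279-34583578 (plus strand) for Ifit3, chr4:156200769-156201068 (minus) for Isg15 and chr12:26456403-26456702 (minus) for Rsad2. In Ifit3 and Rsad2 the motif is on the opposite strand, where each GAAA reads TTTC. The match describes the sequence and says nothing of whether a factor was bound.
Ifit3: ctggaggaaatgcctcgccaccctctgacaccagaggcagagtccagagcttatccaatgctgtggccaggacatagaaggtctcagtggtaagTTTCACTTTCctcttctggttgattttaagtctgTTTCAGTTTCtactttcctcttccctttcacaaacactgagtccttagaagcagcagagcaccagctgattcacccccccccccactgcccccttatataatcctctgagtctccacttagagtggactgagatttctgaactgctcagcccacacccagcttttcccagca
Isg15: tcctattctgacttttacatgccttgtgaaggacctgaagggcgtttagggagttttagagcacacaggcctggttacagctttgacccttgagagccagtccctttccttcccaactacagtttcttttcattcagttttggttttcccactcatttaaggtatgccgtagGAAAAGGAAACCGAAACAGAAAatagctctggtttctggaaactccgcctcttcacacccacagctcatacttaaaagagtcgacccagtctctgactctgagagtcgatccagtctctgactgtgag
Rsad2: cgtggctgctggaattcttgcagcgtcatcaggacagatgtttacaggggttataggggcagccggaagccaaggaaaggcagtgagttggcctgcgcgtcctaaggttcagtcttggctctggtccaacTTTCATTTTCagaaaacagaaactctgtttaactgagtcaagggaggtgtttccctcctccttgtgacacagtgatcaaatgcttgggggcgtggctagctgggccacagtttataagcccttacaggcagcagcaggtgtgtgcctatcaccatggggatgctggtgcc

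Listed targets of let-7 showed small differences. Of 40 genes on the list 29 were at 1 FPKM or more, and of these 12 were higher and 7 lower in both inputs, beside 28.6% and 40.5% of all genes. None was 1.5-fold apart in both, beside 2.08% higher and 2.66% lower of all genes. The median difference of the list was 0.11 beside -0.04 for all genes. Arid3b, given above with its let-7 match and 1.5-fold higher in both inputs, is not on this list. Hmga1 was at 292, 320 and 218 FPKM (0.48 ± 0.14, adjusted p = 0.83). Arid3a was at 9.62, 8.47 and 5.92. Dicer1, the nuclease that cuts pre-microRNAs, was at 18.3, 18 and 12.6. Its partner Tarbp2, which is not on the let-7 list but has 1 match, was at 38, 37.4 and 25.3. In these 4 genes both tet-LIN28B inputs exceeded the control and lay close to each other. Myc, often cited among let-7 targets, was at 41.1, 43.3 and 42.6 FPKM, and Mycn at 4.44, 3.40 and 6.19. The search found no let-7 match in the 3′ UTR of Dicer1, Myc or Mycn.

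Some of the best known targets were silent in all 3 cultures. Hmga2 was at 0.04, 0.05 and 0.08 FPKM with 4 let-7 matches in its 3′ UTR, and Igf2bp1, also with 4, was listed at 0 throughout. Igf2bp3 was at 1.57, 3.66 and 2.21, with the control between the tet-LIN28B inputs. In the fetal and neonatal lymphoid list 9 of 18 genes were at 1 FPKM or more. Of these 4 were higher and 3 lower in both inputs, beside 28.6% and 40.5% of all genes. Mycn and Dntt, given above, were among the lower ones. Among the higher ones besides H19, Bhlhe41, a transcription factor of B-1a cells, was at 2.04, 1.95 and 0.55 FPKM.

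Across 10277 coding genes with a 3′ UTR, those with let-7 matches lay slightly higher. The median difference was -0.05 for 9277 genes without a match, 0.02 for 880 with 1 and 0.06 for 120 with 2 or more, and both tet-LIN28B inputs were above the control for 27.9%, 37.2% and 43.3% of them. Seeds of microRNAs outside the let-7 family gave similar values. For the miR-17-5p match GCACTTT the shares were 27.7%, 35.6% and 40%, and for the miR-181a-5p match TGAATGT they were 27.3%, 35.6% and 39.1%. For the miR-142a-3p match ACACTAC they were 28.5%, 34.9% and 31.5%. Genes with more matches had longer 3′ UTRs, with a median of 966 bases without a let-7 match and 2132 with 1. The genes were therefore divided into 5 classes of UTR length. The medians without and with a let-7 match were -0.11 and -0.05 below 500 bases, -0.06 and 0.03 at 500 to 999, -0.02 and 0.03 at 1000 to 1999, and 0.01 and 0.02 at 2000 to 3999. From 4000 bases on the order was turned, with 0.03 without a match (516 genes) and 0.02 with one (244 genes).

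Growth and protein synthesis genes were nearly level. The 47 large subunit ribosomal proteins had a median difference of -0.06 and the 32 small subunit proteins -0.03, with 0 of either 1.5-fold apart in both inputs. Rpl41, the most abundant, was at 11363, 11420 and 11574 FPKM. Rps7 was at 2205, 3721 and 2057, a value set by tet-LIN28B input 2. For ribosome biogenesis and MYC targets 7 of 34 genes were higher and 14 lower in both inputs, and for translation factors 9 and 10 of 27, beside 28.6% and 40.5% of all genes. Eif3c, an initiation factor subunit, was at 147, 160 and 125 FPKM, one of the larger differences of its list (0.29 ± 0.13).

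Cell division genes differed from the control by small amounts. Of 25 mitosis and G2/M genes 2 were higher and 17 lower in both inputs, with a median of -0.12, and of 28 S phase genes 4 were higher and 15 lower, with a median of -0.11, beside 28.6% higher and 40.5% lower of all genes and a median of -0.04. Cdk1, the mitotic kinase, was at 221, 243 and 289.6 FPKM, and Cenpa, the centromeric histone, at 328, 365 and 438. Of 14 replication-dependent histones on the list 11 were lower and 0 higher, with a median of -0.27, and Hist1h1b, a linker histone, was at 49.7, 68.0 and 86.2 FPKM. None of these genes was 1.5-fold apart in both inputs. Cdkn1a, the p21 cell cycle inhibitor, was also lower in both, at 152, 164 and 230.2 FPKM.

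**Figure D5:**
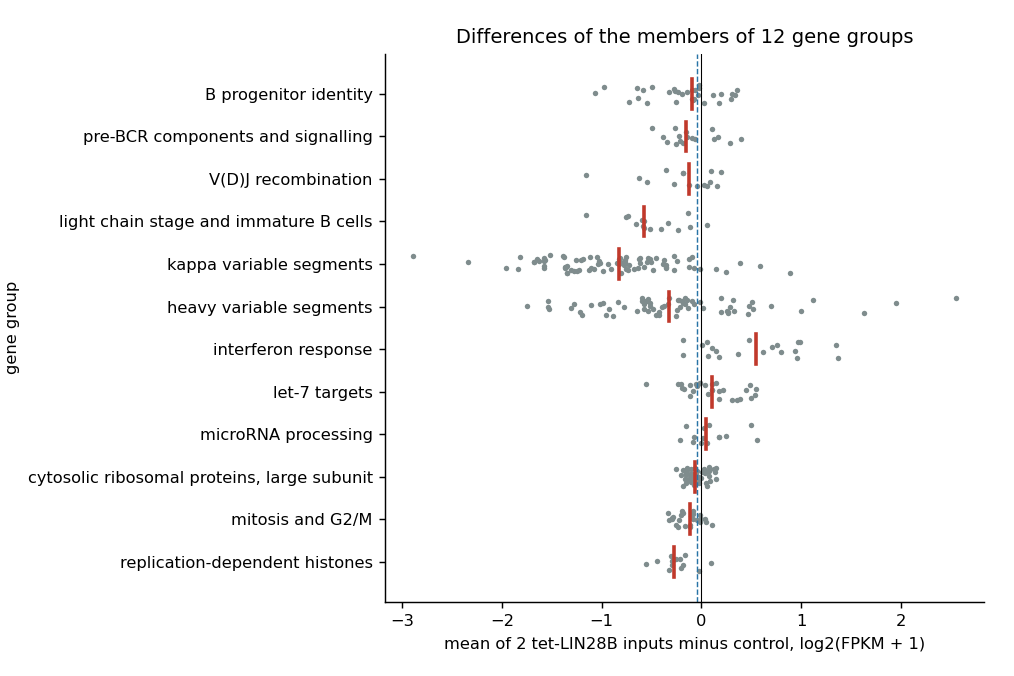
Mean tet-LIN28B difference from the control in log2(FPKM + 1) for the measured members of 12 gene groups, 1 point per gene, with the group median as a red bar and the median of all genes (-0.04) as a dashed line. The κ variable segments (median -0.82) and the light chain list (-0.58) lie to the left, the interferon list (0.55) to the right, and the ribosomal proteins cluster near the median of all genes.

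The coding genes that were 1.5-fold apart were spread over the genome. Every chromosome from 1 to 19 and X held at least 1, at 0.427% to 3.93% of the genes tested there. Of all coding genes 2.48% were 1.5-fold apart, 1.23% higher and 1.24% lower. On chromosome 6, which carries the κ locus and Rosa26, 13 coding genes were higher and 2 lower of 481 (3.12%). Within 10 Mb of Col1a1, the site of the transgene on chromosome 11, 2 were higher and 5 lower of 197 tested (3.55%). Within 10 Mb of Lin28b on chromosome 10 the counts were 0 and 3 of 46 (6.52%), a share above the range of whole chromosomes but from few genes. Col1a1 itself was at 0.01, 0.02 and 0 FPKM.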

How the data were processed

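The authors deposited FPKM per gene for 6 libraries, of which the 3 inputs were used. Per the labels and the methods, 20 ng of RNA went into SMART-Seq v4 and Nextera XT libraries, which keep no strand, and reads were aligned to mm10 with STAR 2.7.1 and quantified with RSEM 1.28; no source used here names the annotation release. Groups follow titles and column names; the last line of each sample's description names the opposite fraction. Gene names were matched to GENCODE M21 (98.8%). Differences were taken on log2(FPKM + 1), which understates changes of low genes. They were tested with limma 3.58.1 (lmFit, eBayes with trend) and Benjamini-Hochberg adjustment over 12576 genes, with 1 residual degree of freedom per gene. The script was tested on simulated data. Where the simulated spread differed between genes, the test recovered 11% of log2 changes of 1 and 98% of changes of 3. With spread set by level alone it recovered 95% and 100%. Differences of 1 can therefore be missed by the test. A value of 1 FPKM on 1 kb of effective length corresponds to about 17.7 to 21.3 fragments. Named genes are the 5 markers and Lin28b, the 10 largest differences each way among all and among protein-coding genes (also at 10 FPKM or more), and per list the 2 most abundant and the 2 most different members; 27 further genes, Igf2, Lsp1, Tnnt3 and Cd81 beside H19 among them, were chosen after their values were seen. The members and the 40 gene lists were chosen with earlier results of these data known. Alternatives changed pseudocount, filter, scaling, gene types, limma settings and libraries. A few items are not reported here.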

Additional observations from a re-analysis of the deposited data

How the results depend on the processing

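No paired analysis was possible because the labels name no pairing of a tet-LIN28B input with the control. The limma test called 0 genes with a pseudocount of 0.1, without a filter, without the trend and with coding, immunoglobulin and long noncoding genes alone (the last chosen after seeing the data), but 8 with a minimum of 5 FPKM, 4 after scaling to TPM, 32 after centering on the median, 1 (Tcea3) among protein-coding genes, 11 with robust eBayes and 9 with all 6 libraries in one fit. Without 1 tet-LIN28B input it called 81 to 100 genes, with the spread then taken from the precipitates. Counts of genes 1.5-fold higher were 439 with a pseudocount of 0.1, 125 with a minimum of 5 FPKM, 127 among protein-coding genes, 174 among coding, immunoglobulin and long noncoding genes, and 491 to 842 without 1 tet-LIN28B input. Counts of genes 1.5-fold lower were 161 with a minimum of 5 FPKM, 529 without a filter, 128 among protein-coding genes and 756 to 782 without 1 input. The κ segments 1.5-fold lower numbered 46 to 69 without 1 input, and the interferon genes 1.5-fold higher numbered 2 with a minimum of 5 FPKM and 9 without either input. The let-7 target median was 0.11 with a pseudocount of 0.1, 0.087 with a minimum of 5 FPKM, 0.13 after scaling to TPM, 0.12 after centering and 0.10 without either input, and the B progenitor median was -0.053 after scaling to TPM and -0.15 to -0.10 without 1 input.

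Of the genes named, 13 changed sign under some setting. Scaling to TPM gave 0.028 for Myc, 0.021 for Rpl41 and 0.041 for Cd81, and centering gave 0.0064 for Cd81. Leaving out input 1 or input 2 in turn gave differences of -0.12 to 2.41 for Igha, -0.23 to 0.10 for Igll1, -0.29 to 0.13 for Lsp1, -0.052 to 0.022 for Myc, -0.039 to 0.85 for Pf4, -0.10 to 0.22 for Bst2, -0.12 to 0.13 for Ifi27l2a, -0.32 to 0.54 for Igf2bp3, -0.018 to 0.075 for Rag2, -0.53 to 0.16 for S100a8, -0.50 to 0.18 for S100a9 and -0.20 to 0.19 for Cd81. The cause of these changes was not tested. With 1 control, its own spread is unknown, and genes near 1 FPKM rest on few fragments.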
